A study of Talaromyces verruculosus with 6 samples.

Results

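The long genes described here are the 103 of 11326 annotated genes of the filamentous fungus Talaromyces verruculosus, strain TS63-9, whose annotated coding length was at least 6000 bp. Every such gene was taken, whether expressed or not and with any number of exons, so no read count entered the choice. They made up 0.909% of the genes and 4.70% of all annotated coding bases. RNA came from actively growing mycelia, started from plugs of agar culture and grown in basic medium for 24 h. Control cultures (3) received no pectin and pectin cultures (3) received 5 g/L of pectin, a plant cell wall polysaccharide rich in galacturonic acid. All cultures were of that single strain and are called biological replicates by the series' design text.

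Coding sequences of this size encode giant multidomain proteins. In filamentous fungi these commonly include polyketide synthases and nonribosomal peptide synthetases, which build secondary metabolites in assembly-line fashion and often lie in clusters of co-expressed neighbouring genes. Other familiar giants are housekeeping proteins, such as the dynein heavy chain that moves cargo along microtubules, the TOR kinase that couples growth to nutrients, acetyl-CoA carboxylase of fatty acid synthesis, and large ubiquitin ligases and membrane traffic proteins. Pectin-degrading enzymes, by contrast, are mostly small secreted proteins. The files pair no locus tag with a gene name or product, so no long gene can be assigned to any of these families here, and mycelial markers could not be looked up. Genes that changed are given mostly by coding length, exon number and position.

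The long genes ran from 6009 to 23772 bp of coding sequence, with a median of 6936 bp beside 1284 bp for all genes. In codons, the longest holds 7924. Of the 103, 23 reached 8000 bp, 12 reached 10000 bp and 5 reached 15000 bp. The 2 nearest above the limit were ZTR_05211 with 6009 bp and a mean of 10.5 RPKM over the 6 libraries, and ZTR_07553 with 6021 bp and 33.3 RPKM. RPKM is the deposited read count divided by coding length and by a library's reads. Just below the limit were ZTR_10925 with 5958 bp at 11.8 RPKM and ZTR_00069 with 5952 bp at 8.90 RPKM.

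Length came from long exons more than from many. The median number of exons was 4 in long genes and 3 in all genes, while the median coding bases per exon were 1554 and 460.5. Introns took 5.53% of the summed gene length of long genes and 10.9% of that of all genes. A single exon held the whole coding sequence in 9 long genes (8.74%, beside 22.1% of all genes), 85 had 2 to 10 exons, and 9 had 11 or more. ZTR_04147 had the highest number, with 26 exons in 7005 bp. Long genes lay on 59 of the 286 contigs that carry genes, 50 of them on the plus strand. The contigs LHCL01000003 and LHCL01000007, with 412 and 293 genes, held 7 each, while 36 contigs held 1.

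Directly adjacent long genes occurred in 2 places. On LHCL01000044, a gene of 7749 bp (181464 to 189509) was followed after 984 bp by one of 9360 bp (190494 to 199853), both on the plus strand, at mean levels of 0.0267 and 0.00275 RPKM. On LHCL01000004, genes of 7737 bp (216833 to 225671, minus strand) and 8790 bp (226536 to 235618, plus strand) lay 864 bp apart and pointed away from each other, at 24.0 and 3.58 RPKM. The first pair was thus near silence and the second was expressed.

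Depth was close to even, with 10320372 to 11393959 exon reads per library, of which 148576 to 187219 fell on long genes. Deposited RPKM carries no scaling factor between libraries, and its median over all genes ran from 8.66 to 10.1 in control and from 7.80 to 8.41 in pectin libraries. Fold changes below come from counts scaled by TMM (trimmed mean of M values, a factor per library), which put the median log2 fold change over the genes tested at −0.0061. With library size alone that median was −0.21. Control 1 stood somewhat apart, with a TMM factor of 1.18 beside 1.02 and 1.03 in the other controls and 0.903 to 0.945 in pectin libraries. All reads on long-gene exons were uniquely mapped. A long gene collects many reads at a low level, so that 3 reads, the limit that a count of 0 allows (counting error only), are worth at most 0.0277 to 0.0309 RPKM per library for coding lengths from 6009 bp up. The median standard error of a log2 fold change was 0.21 for long genes and 0.25 for all genes tested.

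Nearly every long gene gave some reads, but their levels were spread widely. Exon reads were found in all 6 libraries for 99 of the 103 (96.1%, beside 86.4% of all genes), and 9 of the 618 values per gene and library were 0. The median level was 7.43 RPKM, beside 9.20 for all genes. Low levels under 1 RPKM were found in 29 long genes (28.2%, beside 24.1% of all genes), 69 lay between 1 and 50 RPKM, and 5 were above 50 RPKM (4.85%, beside 16.9%). The 10 long genes with the most reads took 41.3% of all exon reads on long genes, and the 29 at a low level took 0.474%.

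**Figure D1:**
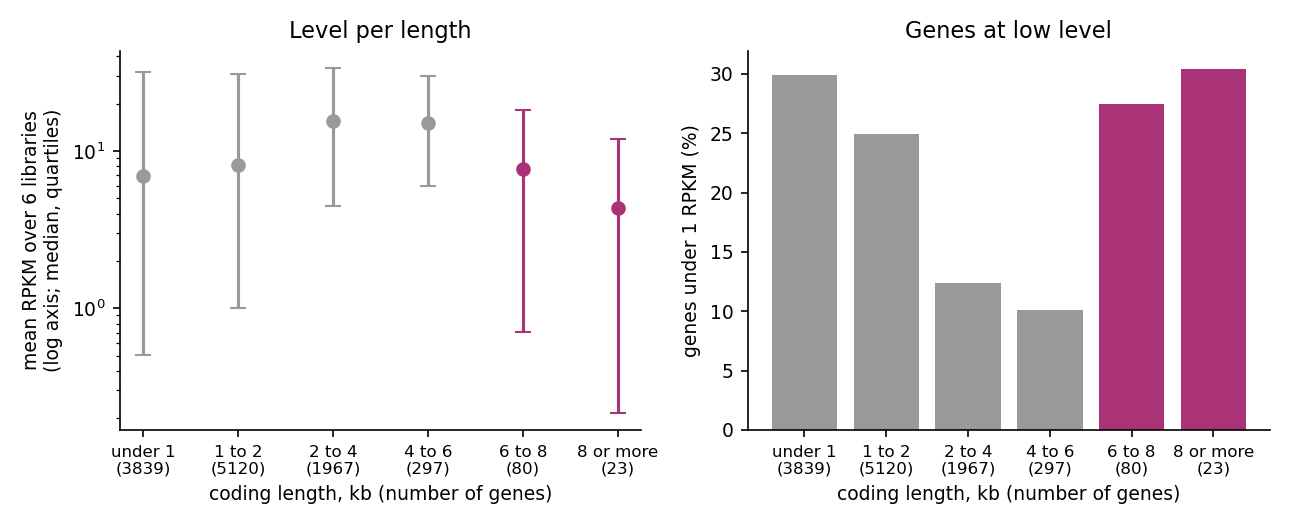
Left, median and quartiles of the mean RPKM over 6 libraries (log axis) for genes in classes of coding length, with the number of genes in brackets; right, percent of genes under 1 RPKM in each class, purple for the long genes. The share under 1 RPKM is 10.1% from 4000 to under 6000 bp and 27.5% and 30.4% in the classes from 6000 bp and from 8000 bp.

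Median levels were highest in genes of middle length and lower in the long genes, as the plot of level by length class shows. The median was 6.94 RPKM under 1000 bp, 8.12 from 1000 bp, 15.5 from 2000 bp and 15.1 from 4000 to under 6000 bp. It was 7.73 RPKM in the 80 genes from 6000 to under 8000 bp and 4.34 in the 23 genes of 8000 bp or more. The lower quartile was 6.03 RPKM from 4000 to under 6000 bp, 0.711 RPKM from 6000 bp and 0.217 RPKM from 8000 bp. These are descriptions of 1 genome, and no test of length classes was made. Among the long genes, Spearman's rho of coding length with level was −0.19 across 103 genes, which are not independent replicates.

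The 5 most abundant long genes were expressed in both groups. ZTR_02886, with 6885 bp in 4 exons on LHCL01000007 (588191 to 595231, minus strand), stood first with 173, 124 and 109 RPKM in controls 1 to 3 and 144, 131 and 99.6 RPKM in pectin libraries 1 to 3. In RPKM, which is not scaled between libraries, the groups overlapped, with control 1 highest and pectin 3 lowest. The TMM-scaled log2 fold change was 0.05 ± 0.25 SE (edgeR adjusted p = 0.923). This gene took 9.00% of all exon reads on long genes. ZTR_08972, with 6375 bp, had 65.2, 64.6 and 66.1 RPKM in controls and 88.5, 62.8 and 66.8 RPKM with pectin, where a single pectin library stood above the rest. ZTR_01797, with 9498 bp, averaged 61.2 ± 4.82 RPKM in control and 53.1 ± 4.01 RPKM with pectin (SD, n = 3 each). ZTR_06422, with 6207 bp, varied most within groups relative to its mean, at 53.6 ± 21.3 RPKM in control and 50.1 ± 17.1 RPKM with pectin (SD, n = 3 each). The remaining one, a gene of 8844 bp with a mean of 58.0 RPKM, rose with pectin and is described below.

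The 5 longest genes split between expressed and nearly silent ones, and none was called. ZTR_08909, the longest with 23772 bp in 9 exons on LHCL01000037 (162028 to 186246, minus strand), had 3.69, 5.12 and 4.19 RPKM in controls and 4.06, 4.78 and 4.21 RPKM with pectin, with the pectin values inside the range of the controls. Its log2 fold change was 0.13 ± 0.21 SE (edgeR adjusted p = 0.715). ZTR_02840, with 17691 bp in 4 exons, averaged 12.1 ± 1.73 RPKM in control and 9.64 ± 1.55 RPKM with pectin (SD, n = 3 each). ZTR_02769, with 15303 bp in 8 exons, lay at 1.49 ± 0.177 and 1.79 ± 0.135 RPKM. The other two were near silence: ZTR_09023, with 16791 bp, did not exceed 0.06 RPKM in any library, and ZTR_02014, with 15729 bp, did not exceed 0.09 RPKM. Adjusted p-values in edgeR ran from 0.154 to 0.715 over these 5 genes.

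Long genes at a low level lay mostly beside other genes at a low level. Of the 58 positions directly next to the 29 long genes under 1 RPKM, 43 (74.1%) held a gene that was itself under 1 RPKM. The median over the 58 was 0.28 RPKM. Neighbours were counted by position, so a gene beside several long genes was counted at each, and adjacent long genes counted as neighbours. Over all genes under 1 RPKM, 52.5% of direct neighbours were under 1 RPKM. For the 74 long genes at 1 RPKM or more, 18 of 148 neighbours (12.2%) were under 1 RPKM, and the median neighbour had 14.8 RPKM; over all genes at that level the share was 15%. Both neighbours were under 1 RPKM for 15 of the 29, and neither was for 1. In structure, low long genes had a median of 5 exons and 7323 bp beside 4 exons and 6805.5 bp for the other long genes. Whether the silent neighbourhoods differ from those of shorter genes was not tested.

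Pectin in the medium is the variable the series was built on, and most long genes were not called changed by it. Of the 103, 89 had enough reads to be tested; the other 14 had 3 to 58 exon reads over all 6 libraries together and no library above 0.17 RPKM. In edgeR's quasi-likelihood test over 9177 genes with Benjamini-Hochberg adjustment and a threshold of 0.05, 4 long genes were higher with pectin and 8 were lower. That is 4.49% and 8.99% of those tested, beside a background of 9.20% higher and 7.00% lower over all genes tested. At 2-fold or more the counts were 2 higher (2.25%) and 8 lower (8.99%), beside backgrounds of 6.08% and 5.49%. No test of these shares against the background was made. The RNA was of whole cultures, so fewer cells of a kind and less RNA per cell cannot be told apart. The median log2 fold change was −0.07 over the 89 long genes, with quartiles of −0.43 and 0.24, beside quartiles of −0.39 and 0.37 over all genes. After TMM scaling, pectin libraries lay all above the controls in 15 long genes (16.9%) and all below in 23 (25.8%). Backgrounds over all genes tested were 20.1% and 17.8%.

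Counts of calls depended on single libraries, over all genes as well as over long genes. In edgeR, the count higher was 0 without control 2, 1 without control 3, pectin 1 or pectin 2, 3 without pectin 3 and 6 without control 1. Scaling by library size gave 1 higher and 12 lower among long genes, and 545 higher and 942 lower beside 844 and 642 over all genes. The count lower was 6 to 10 without any single library, 6 being without pectin 2 and 10 without control 1. Over all genes, 3.57% were called higher and 3.53% lower without control 2, and 3.498% and 2.04% without pectin 2.

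**Figure D2:**
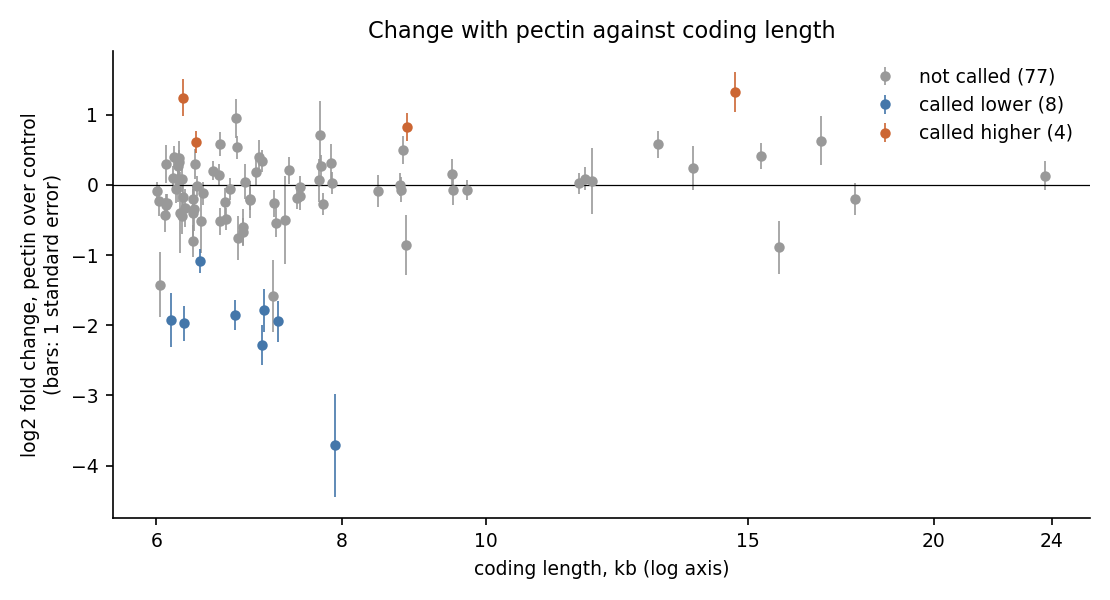
Log2 fold change of pectin over control (TMM scaled; bars show 1 standard error) against coding length in kb (log axis) for the 89 long genes tested. All 8 genes called lower have coding lengths from 6135 to 7911 bp, and the 4 called higher range from 6252 to 14694 bp.

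The 8 genes called lower all had between 6135 and 7911 bp, as the plot of change against coding length shows. In the class from 6000 to under 8000 bp, 8 of 69 genes tested were called lower (11.6%) and 2 higher. Among the 20 tested of 8000 bp or more, 0 were called lower and 2 higher by edgeR; the difference between these classes was not tested. Each class beneath had 5.88% to 8.33% of genes called lower and 5.62% to 12.0% called higher. By exon number, 2 of the 7 tested long genes with a single exon were called higher and 0 lower. Of the 6 tested with 11 or more exons, 1 was called lower. Over all genes tested 9.20% were called higher and 7.00% lower. Shares over all genes with these exon numbers are not given here, so these counts are descriptions only.

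**Figure D3:**
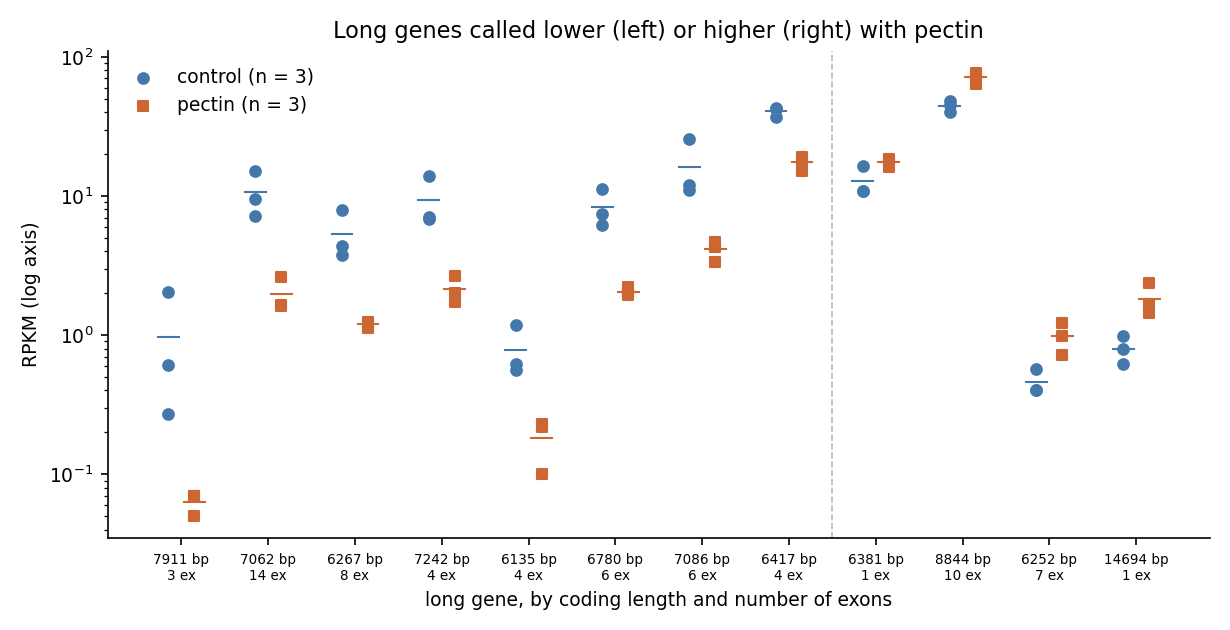
RPKM in every library (log axis) for the 12 long genes called in edgeR, ordered by log2 fold change and labelled by coding length and number of exons; short lines are group means of 3. In RPKM, the 8 genes on the left lie lower in every pectin library than in any control. Of the 4 on the right, only the 6381-bp gene has a control within the pectin range, an overlap absent after TMM scaling.

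The 4 genes called higher rose by 1.53- to 2.50-fold. ZTR_03218 is a single uninterrupted exon of 14694 bp on LHCL01000018 (274923 to 289616, minus strand). Its level was 0.62, 0.80 and 0.98 RPKM in controls and 1.43, 2.38 and 1.68 RPKM with pectin, so that every pectin library lay above every control. The log2 fold change was 1.32 ± 0.29 SE (edgeR adjusted p = 0.0219). The call was lost without control 2 (edgeR adjusted p = 0.0702) and without pectin 2 (0.0868). ZTR_04591, with 6252 bp in 7 exons on LHCL01000020 (211927 to 219882, minus strand), had 0.57, 0.40 and 0.40 RPKM in controls and 0.99, 0.72 and 1.23 RPKM with pectin, again without overlap. The log2 fold change was 1.25 ± 0.27 SE (edgeR adjusted p = 0.0213), and edgeR's adjusted p was 0.0876 without control 2, 0.0593 without control 3, 0.0746 without pectin 1, 0.0597 without pectin 3 and 0.0532 when scaled by library size. Most of its reads lay outside its annotated exons, 1001 beside 452 exon reads, or 68.9% (65.4% to 73.8% in single libraries), so its RPKM rests on the smaller part of the reads over this gene. With total gene reads its log2 fold change was 1.24 (edgeR adjusted p = 0.0074). Both genes had low exon levels in either medium.

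The other 2 that rose were well expressed in both media. A gene of 8844 bp in 10 exons on LHCL01000007 (368984 to 378692, plus strand), the third most abundant long gene, had 45.4, 40.2 and 48.2 RPKM in controls and 73.4, 76.7 and 64.1 RPKM with pectin, with no overlap. The log2 fold change was 0.83 ± 0.20 SE (edgeR adjusted p = 0.0293). The adjusted p of edgeR rose above the threshold without control 2 (0.105), control 3 (0.0518), pectin 1 (0.0907), pectin 2 (0.118) or control 1 and pectin 1 together (0.0565), and when scaled by library size (0.0590). A single-exon gene of 6381 bp on LHCL01000125 (14329 to 20709) had 16.4, 10.9 and 10.9 RPKM in controls and 16.1, 17.8 and 18.4 RPKM with pectin. In RPKM, control 1 lay inside the pectin range. After TMM scaling this gene had every pectin library above every control. Its log2 fold change of 0.61 ± 0.16 SE (edgeR adjusted p = 0.0417) was the smallest among the called long genes. That call also ended when scaled by library size (edgeR adjusted p = 0.216) or upper quartile (0.0829), with a filter of 10 CPM (0.0961), and without control 2 (0.158), control 3 (0.121), pectin 1 (0.0973), pectin 2 (0.138) or pectin 3 (0.0913).

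The genes called lower fell by 2.12- to 13.1-fold. ZTR_02265, with 6417 bp in 4 exons on LHCL01000001 (255544 to 262134, plus strand), was the most abundant of them. It had 42.8, 42.0 and 37.2 RPKM in controls and 15.2, 18.1 and 19.1 RPKM with pectin, and the groups lay well apart (log2 fold change −1.08 ± 0.17 SE, edgeR adjusted p = 0.00627). ZTR_09738, with 7086 bp in 6 exons on LHCL01000127 (7825 to 15685, plus strand), had 25.7, 12.0 and 11.04 RPKM in controls and 4.69, 4.33 and 3.37 RPKM with pectin. Its log2 fold change was −1.78 ± 0.30 SE (edgeR adjusted p = 0.00938). Control 1 had more than the other controls, and every pectin library lay below all of them.

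Falls from moderate levels were found in 4 further genes. The gene of 7062 bp in 14 exons on LHCL01000010 (575214 to 583393) had 15.2, 9.56 and 7.13 RPKM in controls and 1.63, 1.64 and 2.61 RPKM with pectin, a log2 fold change of −2.28 ± 0.29 SE (edgeR adjusted p = 0.00288). The gene of 7242 bp in 4 exons on LHCL01000070 (16909 to 24340) had 14.03, 7.02 and 6.87 RPKM in controls and 2.65, 2.02 and 1.72 RPKM with pectin (log2 fold change −1.94 ± 0.29 SE, edgeR adjusted p = 0.00573). In both, control 1 stood above controls 2 and 3, and the groups did not overlap. The gene of 6780 bp in 6 exons on LHCL01000097 (79235 to 86352) had 11.2, 7.44 and 6.23 RPKM in controls and 2.21, 1.97 and 1.93 RPKM with pectin (log2 fold change −1.86 ± 0.21 SE, edgeR adjusted p = 0.00185). The gene of 6267 bp in 8 exons on LHCL01000109 (25841 to 32693) had 7.88, 3.79 and 4.35 RPKM in controls and 1.23, 1.25 and 1.13 RPKM with pectin (log2 fold change −1.97 ± 0.25 SE, edgeR adjusted p = 0.00296). Pectin libraries were tightly grouped in these last 2, while the controls were spread.

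Weakly expressed to begin with, 2 further genes that fell lay close together on LHCL01000008. The gene of 7911 bp in 3 exons (582793 to 590858) had 2.03, 0.61 and 0.27 RPKM in controls and 0.07, 0.07 and 0.05 RPKM with pectin. This was the largest change among the long genes, with a log2 fold change of −3.71 ± 0.73 SE (edgeR adjusted p = 0.0163), but control 1 alone set much of its size. Without control 1 the log2 fold change was −2.74, and the call was lost without pectin 1 (edgeR adjusted p = 0.0548), pectin 2 (0.0703) or pectin 3 (0.0538). The gene of 6135 bp in 4 exons (568949 to 575277) had 1.18, 0.56 and 0.62 RPKM in controls and 0.10, 0.22 and 0.23 RPKM with pectin (log2 fold change −1.92 ± 0.39 SE, edgeR adjusted p = 0.0168). Without pectin 2 the adjusted p of edgeR was 0.0602. A single short gene lies between these 2 long genes.

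Control 1 had the highest deposited RPKM of the 3 controls in all 8 genes that fell, a value without scaling between libraries. Its median RPKM over all genes was also the highest, 10.1 beside 8.66 in control 2 and 9.03 in control 3. In exon reads, ZTR_02265 was highest in control 2, with 4859 beside 4432 in control 1. Without control 1 all 8 were still called lower, among 10 in total, and without control 1 and pectin 1 together all 8 were still called, among 8 in total. The remaining 77 tested long genes had log2 fold changes from −1.59 to 0.95, and 75 of them lay within 2-fold. The other two, of 7185 and 6030 bp, averaged 0.15 and 3.16 RPKM in control and 0.0433 and 1.08 RPKM with pectin, with no overlap between groups, and missed the threshold (edgeR adjusted p = 0.0765 and 0.0778).

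**Figure D4:**
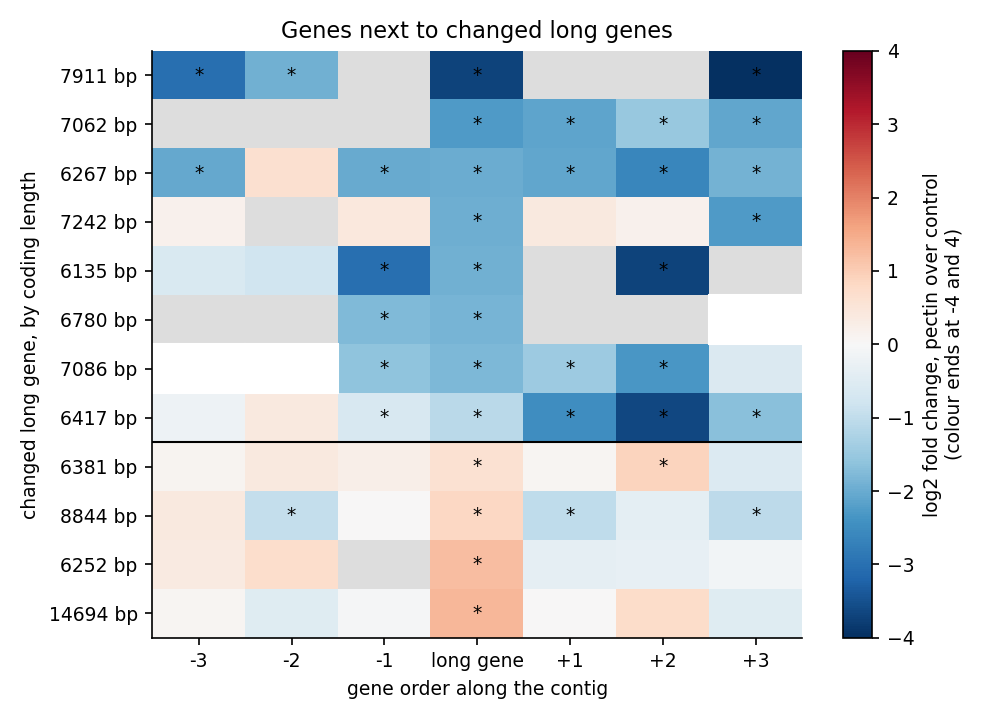
Log2 fold change of pectin over control for the 12 called long genes (centre column, labelled by coding length) and the 3 annotated genes on either side in order along the contig. Stars mark an edgeR adjusted p under 0.05, grey marks genes with too few reads to test, and white marks the end of the contig; of the 8 genes that fell (above the line), 6 have a direct neighbour that also fell.

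Long genes that fell lay beside other genes that fell, as the plot of neighbouring genes shows. A directly neighbouring gene was also called lower for 6 of the 8, beside 29.4% of all 642 genes called lower. None of the 4 that rose had a directly neighbouring gene called higher (0 of 4), beside 32.1% of all 844 genes called higher. Within 3 genes on either side of the 8 that fell there were 40 further genes, of which 29 were tested, 19 were called lower and 0 higher. Around the 4 that rose there were 24, of which 23 were tested, 1 was called higher and 3 lower. Over all genes tested 7.00% were called lower and 9.20% higher. The share within 3 genes of shorter called genes is not given here. The neighbours were looked at with the calls known, and whether long genes differ from shorter called genes in this was not tested. Under the other scalings, filters, tools and left-out libraries at the 6000 bp limit the count of 6 ran from 4 to 7, 4 being of 6 long genes called without pectin 2.

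The falling neighbourhoods differed in kind. Downstream of ZTR_02265 on LHCL01000001, the next 3 genes had log2 fold changes of −2.50, −3.63 and −1.67, so that the long gene had the smallest change of the 4. Around the 6267-bp gene on LHCL01000109, the long gene fell by 1.97 on the log2 scale, the neighbour before it fell by 2.02 and the neighbour after it fell by 2.09. The 7062-bp gene stood at an edge: the 3 genes after it had log2 fold changes of −2.10, −1.51 and −2.07, all called lower, while the 3 before it had at most 0.03 RPKM on average in either group. Near the 7911-bp gene, which had direct neighbours too low to test, the third gene after it averaged 3.68 RPKM in control and 0.0633 RPKM with pectin (edgeR adjusted p = 0.0232). Both direct neighbours of ZTR_09738 were called lower, with log2 fold changes of −1.61 and −1.46. The 7242-bp gene lay apart from other genes called lower up to the third gene after it: its direct neighbours had log2 fold changes of 0.41 and 0.40 and were not called (edgeR adjusted p = 0.660 and 0.300).

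Genes that rose had direct neighbours that were not called higher. The 14694-bp single-exon gene ZTR_03218 had direct neighbours at 11.9 and 17.7 RPKM, above its own mean of 1.32 RPKM, with log2 fold changes of −0.03 and 0.03. The 8844-bp gene was followed directly by a gene that fell by 1.02 on the log2 scale (edgeR adjusted p = 0.0225), from 15.7 to 6.93 RPKM. The gene before it, of 4392 bp, had a log2 fold change of 0.02 (edgeR adjusted p = 0.962). The 1 gene called higher within 3 positions lay next but 1 to the 6381-bp gene and went from 239 to 402 RPKM.

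**Figure D5:**
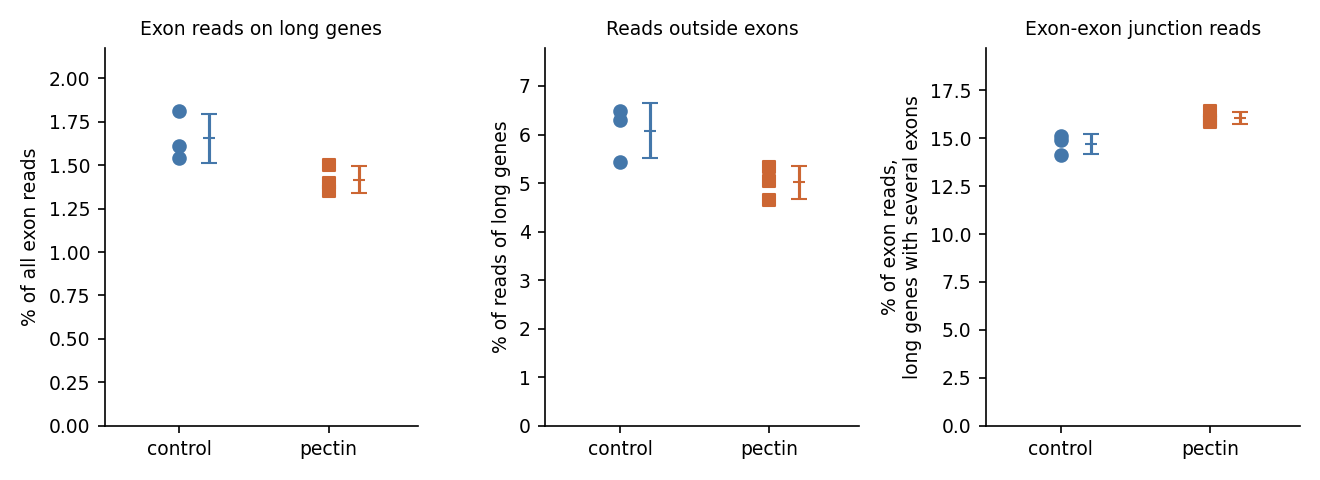
Percent of all exon reads that fell on long genes, percent of long-gene reads outside annotated exons, and exon-exon junction reads as a percent of exon reads in long genes with several exons, per library, with the mean and SD of 3 at the side. Pectin libraries are below every control in the first 2 measures (1.35% to 1.504% beside 1.54% to 1.81%, and 4.66% to 5.34% beside 5.44% to 6.49%) and above every control in the third, which rests on 1 gene.

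Long genes took a smaller share of the library with pectin. They held 1.81%, 1.61% and 1.54% of exon reads in controls and 1.40%, 1.504% and 1.35% in pectin libraries, with 95% Wilson intervals no wider than 0.0163 percentage points. The means were 1.66 ± 0.141% and 1.42 ± 0.0792% (SD, n = 3 each; two-sided exact permutation test, p = 0.1, the lowest that 3 against 3 can give, and 0.1 adjusted over 3 measures). Every pectin library lay below every control. The change was not spread evenly over lengths. Genes from 6000 to under 8000 bp went from 1.24 ± 0.114% to 1.02 ± 0.0545%, and those of 8000 bp or more from 0.416 ± 0.0272% to 0.402 ± 0.0258%. Genes from 4000 to under 6000 bp shared the direction of the former, from 5.57 ± 0.218% to 4.77 ± 0.115%. From 2000 to under 4000 bp the share went from 28.5 ± 0.384% to 27.7 ± 1.17%. It was 45.2 ± 0.678% and 45.4 ± 0.344% from 1000 to under 2000 bp. Genes under 1000 bp went the other way, from 19.0 ± 0.243% to 20.7 ± 0.947% (SD, n = 3 each). In bulk RNA, such a share cannot tell fewer transcripts of long genes from more of others. Nor does it carry TMM scaling. With library size alone, the median log2 fold change was −0.28 over the long genes tested and −0.21 over all genes tested. After TMM scaling these medians were −0.07 and −0.0061, so much of the unscaled fall was shared by the typical gene.

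Reads outside annotated exons were a small part of the reads of long genes. The share over long genes was 6.31%, 6.49% and 5.44% in controls and 5.05%, 5.34% and 4.66% in pectin libraries, or 6.08 ± 0.561% and 5.01 ± 0.342% (SD, n = 3 each; two-sided exact permutation test, p = 0.1). Over all genes it was 17.7 ± 1.85% and 15.1 ± 0.841%, lower with pectin as well. Single-exon genes also have such reads, and where they lie was not examined. In single-exon genes the share was lower in longer classes. It lay between 38.1% and 49.5% in the 6 libraries for genes under 1000 bp, between 13.5% and 19.5% from 1000 bp, between 4.31% and 5.98% from 4000 bp, and between 3.69% and 5.22% from 6000 to under 8000 bp (7 genes).

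Gene by gene, the ratio of outside to exon reads was tested relative to the totals of both kinds of read, so a gene can count as higher where its share went down less than that of the whole library. No long gene was called. Of 72 long genes with at least 60 reads of each kind, 0 passed edgeR's interaction test at an adjusted p under 0.05, beside a background of 0.248% higher and 0.732% lower over 8062 genes. At an unadjusted p under 0.05, 8 were higher and 3 lower, together 15.3% beside 11.03% of all genes tested. ZTR_02769, of 15303 bp, had the lowest p-value of the long genes, with 4.81%, 4.21% and 3.07% of its reads outside exons in controls and 0.977%, 1.10% and 2.13% with pectin. These values do not overlap, but they rest on 69 reads in all and the test was not passed (edgeR adjusted p = 0.153).

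A few long genes had many reads outside exons in every library. The highest share, 68.9%, was that of ZTR_04591, which rose with pectin and has 452 exon reads. Of the 70 with several exons and at least 600 exon reads, the median share was 4.82% (quartiles 3.05% and 7.66%), beside 13.2% over all 5468 such genes, and 6 were above 15%. ZTR_08307, named here after its values were seen, had 37.1%, with 36.6%, 35.9% and 38.5% in controls and 35.5%, 40.3% and 37.0% with pectin. It holds 8838 bp in 13 exons and 2434 bp of introns. ZTR_10584, with 6252 bp in 8 exons and 2428 bp of introns, had 23.1%. By contrast ZTR_01467, with 24.9%, has 586 bp of annotated introns and 0% junction reads among 872 exon reads, so that none of its 3 annotated introns was seen spliced.

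Junction reads were a smaller part of exon reads in long genes than over all genes, but were similar per intron. Exon-exon junction reads made up a median of 9.70% of exon reads in these 70 genes and 33.0% in the 5468. Per intron and per unit of coverage, the number of junction reads corresponded to a median of 198 bases of coverage in long genes (quartiles 132 and 258) and 193 bases over all (quartiles 137 and 259). Summed over long genes with several exons, junction reads were 14.9%, 14.1% and 15.1% of exon reads in controls and 16.4%, 15.8% and 15.95% with pectin (14.7 ± 0.515% and 16.1 ± 0.321%, SD, n = 3 each; two-sided exact permutation test, p = 0.1). Over all genes with several exons the values were 38.9 ± 0.563% and 40.6 ± 1.17%, higher with pectin as well. In the long genes the difference rested on the 8844-bp gene that rose. Without it the means were 12.9% in control and 12.7% with pectin (exact permutation p = 0.6). Junction reads were 60.5% and 61.0% of that gene's own exon reads in control and pectin libraries, and it gave 15.9% of all junction reads of long genes in control and 26.3% with pectin.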

How the data were processed

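The series holds RNA-seq of 6 mycelial cultures of a single fungal strain, 3 grown without and 3 with pectin, grouped by their labels. Per the file headers, the authors deposited for each gene and library whole-number counts of exon, intron, exon-exon junction and total gene reads. Uniquely mapped counts stood beside them. The authors also deposited an RPKM per gene, for which the total of reads was above the sum of reads on genes and no scaling factor was used. Aligner, genome build and strand setting were not given in the sources used here. Per the labels' protocols, mRNA was purified on poly-T beads and fragmented before reverse transcription, and libraries were sequenced as read pairs. Replicate libraries of a group differed by more than sampling noise over the long genes (chi-square per degree of freedom from 16.6 to 93.0). The reads headed as intron reads are called reads outside annotated exons here, since single-exon genes have them too. Exon reads and these reads added up to the gene reads in 100% of genes. All coding lengths were multiples of 3, so they hold no UTRs. The members and lists were chosen with earlier results of these data known.

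The main test of exon counts was that of edgeR 4.0.16, run in R 4.3.3 (TMM scaling, filterByExpr, robust quasi-likelihood F-test, no block) over 9177 genes, with Benjamini-Hochberg adjustment over all of them. An edgeR interaction of read type and group, with the library as a block, tested the share outside exons where each read type had at least 60 reads. Ratios of reads per gene used genes with at least 600 exon reads. Library shares were compared by exact permutation tests in scipy 1.17.1, and figures were drawn with matplotlib 3.10.9. Wilson intervals have 95% confidence, and intervals and floors cover counting error only. DESeq2 1.42.0, limma 3.58.1 (voom), other scalings, filters, length limits, a replicate block and leaving out libraries were tried as alternatives. The genes described singly are the 5 longest, the 5 most abundant, those nearest the length limit and all that were called. Others, such as ZTR_08307, ZTR_10584 and ZTR_01467, were chosen after their values were seen. ZTR_04147 was named for its number of exons. Tags are given for at most 2 changed genes in each direction, since no product names go with them. Replicates are described as biological, and p-values set the difference between groups against the spread between these libraries.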

Additional observations from a re-analysis of the deposited data

How the results depend on the processing

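The count of long genes called higher with pectin, 4 in the main test, was the least stable result. It was 1 with library size scaling, 2 with a filter of 10 CPM, 7 in DESeq2's Wald test and 7 with total gene reads. It was 2 at 2-fold or more, 8 with a length limit of 5000 bp and 2 with one of 8000 bp, and it ran from 0 to 6 without single libraries. The count called lower, 8 in the main test, was 0 at 8000 bp or more by edgeR, 6 to 10 without single libraries, and 8 to 12 under the other alternatives except the replicate block. With the replicate block the counts were 8 higher and 13 lower, and over all genes the calls went from 9.20% higher and 7.00% lower to 12.7% and 11.6%. In DESeq2's Wald test they were 11.6% and 10.5%. Same-numbered libraries correlated at 0.478, 0.0732 and 0.432 after removal of group means. Each pectin library correlated best with the control of its own number, though control 2 correlated best with pectin 3 (0.356). The labels do not say that the numbers mark pairs, so the main test used no block. Whether the cultures were paired is not known. The 8 genes called lower were all among those called in DESeq2 and limma-voom. The junction read difference of 1.35 percentage points was reversed, at −0.141, without the 8844-bp gene, an alternative chosen after seeing the data. It was 1.06 to 1.55 without single libraries. The share of exon reads differed by −0.296 to −0.161 percentage points without single libraries, and the share outside exons by −1.38 to −0.858. The median log2 fold change of long genes was −0.28 with library size scaling, where that of all genes was −0.21. Without the filter on low counts all 103 long genes were tested, with 4 called higher and 10 lower.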
